A study of Mus musculus with 33 samples.

Results

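Of 12 single cardiomyocytes profiled by RNA sequencing from mouse hearts at postnatal day 19 (P19), 6 carried the capillary endothelial transcript Fabp4 at 154 CPM or more and 6 carried it at 1.16 CPM or less. The 6 Fabp4-high cells were chosen by that level alone, with a threshold of 100 CPM, where CPM is a gene's count per 1000000 counts of the cell. They are 6 of 33 cells in the whole data set, and the comparison set here is the other 6 P19 cells. The genes described are all genes other than Fabp4, whose own values are the choice and not a result.

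All 33 cells came from ventricles of transgenic mice that carry mAG-hGem, a green fluorescent protein joined to geminin that is stable from S phase to mitosis and is degraded in G1. They were sorted by that fluorescence as positive or negative, at embryonic day 14.5 (E14.5, 10 positive and 11 negative) or at P19 (8 positive and 4 negative). The Fabp4-high cells were P19 positive cells 1, 4, 5, 6 and 8 and P19 negative cell 1, and the others were P19 positive cells 2, 3 and 7 and P19 negative cells 2, 3 and 4. A cell entered sequencing only if a PCR on its cDNA found the cardiomyocyte troponin Tnnt2 and did not find Pdgfrb, a receptor of mural cells and fibroblasts that the protocol used to detect cells of other types. No label names a strain, an animal, a litter or a sort day, so no p-value was computed, and every interval below is a 95% interval that covers counting error only.

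Endothelial cells line the vessels, and the heart muscle is fed by a dense capillary bed in which nearly every cardiomyocyte touches a capillary. VE-cadherin, the product of Cdh5, joins endothelial cells to each other, and the receptor tyrosine kinases encoded by Kdr and Flt1 bind vascular endothelial growth factor (VEGF), which cardiomyocytes secrete. Heart capillaries also move fatty acids from blood to muscle. GPIHBP1 holds lipoprotein lipase on the vessel wall, CD36 takes up the released fatty acids, and FABP4 carries them through the endothelial cytoplasm.

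The 2 sets were sequenced to similar depth. Totals ran from 13.2 to 40.1 M counts per Fabp4-high cell (M for 1000000, median 27.9 M) and from 13.9 to 36.1 M per other cell (median 28.6 M). Genes with at least 1 read numbered 6849 to 10867 (median 8938.5) against 6934 to 8789 (median 7997.5). Fabp4 itself was at 480, 1516, 1015, 154 and 392 CPM in P19 positive cells 1, 4, 5, 6 and 8 and at 942 CPM in P19 negative cell 1. Among the others it was at 0.144, 1.16 and 0.555 CPM in P19 positive cells 2, 3 and 7 and had no count in the 3 negative cells. The nearest cells on either side of the threshold were thus P19 positive cell 6 at 154 CPM and P19 positive cell 3 at 1.16 CPM, and a threshold of 10 CPM picks the same 6 cells. One library goes against the PCR screen: P19 positive cell 8 held 438 Pdgfrb counts (10.9 CPM), while P19 negative cell 1 held 2 and the other 10 P19 cells held none.

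The endothelial junction and receptor genes were higher in the cells with Fabp4. Cdh5 was at 6.65, 39.1, 52.1, 2.03 and 68.1 CPM in P19 positive cells 1, 4, 5, 6 and 8 and at 7.29 CPM in P19 negative cell 1. In the other cells it reached 0.996 CPM (P19 positive cell 3) and 0.0694 CPM (P19 positive cell 7) and was not read in the other four. Every Fabp4-high cell therefore lay above every other cell, although P19 positive cell 6 was only about 1 CPM above the nearest of them. Over the summed counts of each set the log2 ratio of Cdh5, Fabp4-high over other, was 6.97 (6.51 to 7.47), from 4801 counts against 38. With each cell left out in turn it ran from 6.16 without P19 positive cell 8 to 10.86 without P19 positive cell 3, which held 36 of the 38 counts.

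Kdr, the main signalling receptor for VEGF, was at 2.11, 96.1, 175, 0.748 and 39.6 CPM in P19 positive cells 1, 4, 5, 6 and 8 and at 17.7 CPM in P19 negative cell 1. P19 negative cell 4 had 0.775 CPM, the other cells had at most 0.0694 CPM, and 3 of the 6 had no count. The sets overlap for Kdr, because P19 positive cell 6 lay just under P19 negative cell 4. Its log2 ratio was 8.09 (7.54 to 8.70), from 7.46 without P19 positive cell 5 to 10.52 without P19 negative cell 4.

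Flt1, the second VEGF receptor gene, had no count in any of the 6 other cells. It was at 37.7, 39.9, 16.4 and 52.8 CPM in P19 positive cells 4, 5, 6 and 8 and at 68.9 CPM in P19 negative cell 1, but it had no count in P19 positive cell 1. Set against a floor of 3 counts over the other cells, Flt1 was at least 2275-fold higher over the Fabp4-high cells. Pecam1, which encodes the endothelial adhesion molecule CD31, was read in 4 of the 6 Fabp4-high cells, at 0.321 to 12.5 CPM, and in none of the others. Its bound was at least 305.3-fold.

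**Figure D1:**
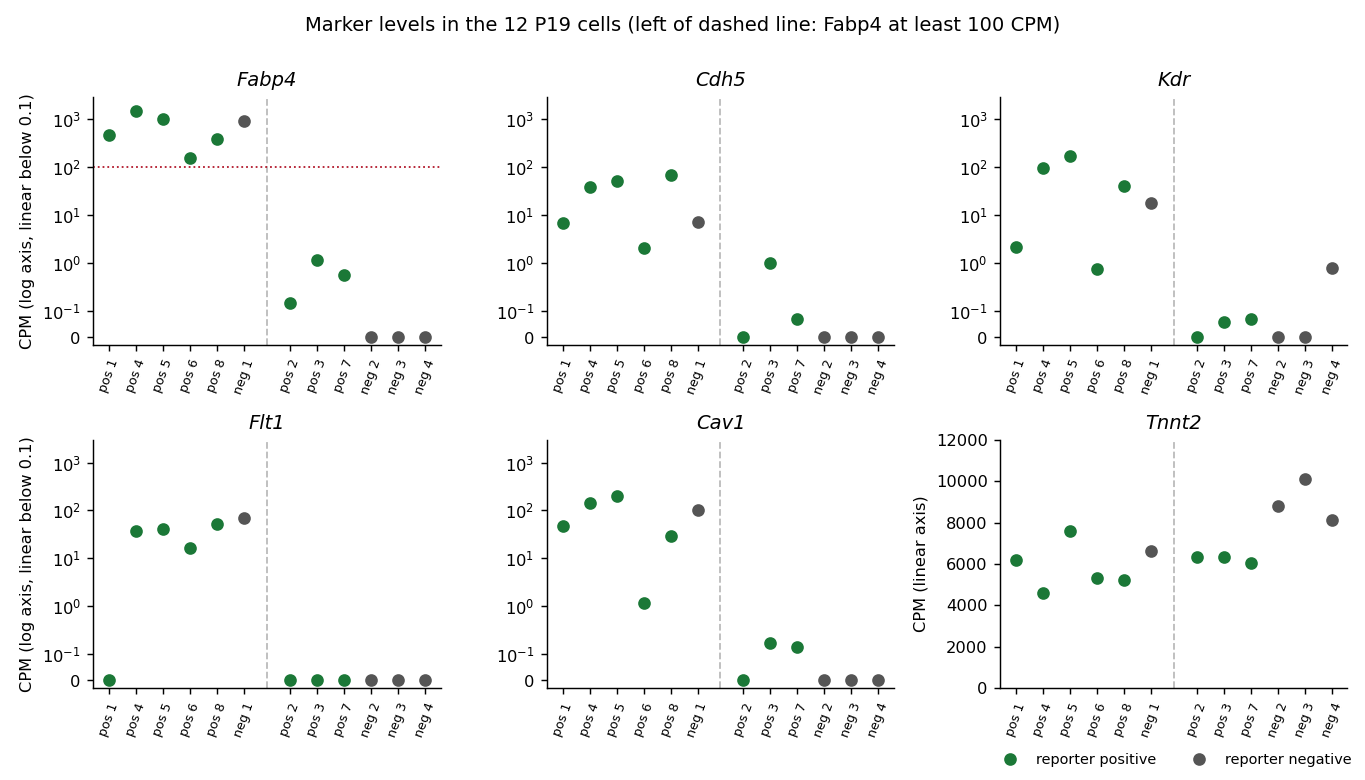
CPM of Fabp4, Cdh5, Kdr, Flt1, Cav1 and Tnnt2 in each of the 12 P19 cells, on a log axis that is linear below 0.1 (a linear axis for Tnnt2), with Fabp4-high cells left of the dashed line and reporter-positive (pos) and reporter-negative (neg) cells in 2 colours. Cdh5 spans 2.03 to 68.1 CPM in the Fabp4-high cells and reaches 0.996 CPM in the others, while Tnnt2 lies between 4617 and 10090 CPM in all 12 cells.

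Both VEGF receptor genes lie on chromosome 5 on the minus strand, Kdr at chr5:75932827-75978458 and Flt1 at chr5:147561604-147726011 (GENCODE vM21, GRCm38). Because these receptor genes were read together in 5 of the 6 Fabp4-high cells, the 250 bases upstream of each RefSeq start were read (GRCm38.p6, minus strand, 5′ to 3′). They cover chr5:75978456-75978705 for Kdr and chr5:147726012-147726261 for Flt1, and capitals mark GGAA, the core bound by ETS factors, written as TTCC where it lies on the opposite strand.
Kdr: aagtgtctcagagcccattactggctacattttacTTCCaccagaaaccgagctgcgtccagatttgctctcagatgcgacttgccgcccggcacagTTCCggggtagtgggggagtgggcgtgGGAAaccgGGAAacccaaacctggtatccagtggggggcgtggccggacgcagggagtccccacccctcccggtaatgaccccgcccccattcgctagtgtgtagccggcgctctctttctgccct
Flt1: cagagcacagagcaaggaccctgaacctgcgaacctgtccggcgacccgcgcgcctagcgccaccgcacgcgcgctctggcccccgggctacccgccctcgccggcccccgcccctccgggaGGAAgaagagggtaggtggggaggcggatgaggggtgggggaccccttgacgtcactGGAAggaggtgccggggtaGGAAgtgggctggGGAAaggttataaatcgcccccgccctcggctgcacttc
Each window holds 4 GGAA matches counted on both strands. GGAA occurs in 93.4% of 32851 mouse promoter windows of this length, and 33.4% hold at least 4. The longer string CAGGAAG, which contains a GGAA, was searched on both strands and is in neither window. It was in 10.8% of all windows and in 33.3% (7) of 21 windows belonging to 16 pan-endothelial genes. GGAA itself was in 90.5% of those 21 windows, against 93.4% of all windows. A match describes letters in the window and is not evidence of a bound site. The genes of 3 endothelial ETS factors were read in some of the Fabp4-high cells. Fli1 was read in 4 (log2 ratio 6.71) and Ets1 in 4 (at least 228.8-fold). Erg was read in 3 (log2 ratio 6.37 from 250 counts against 3, interval 4.81 to 8.66). P19 positive cell 6, which held reads of both receptor genes, had no count of any of the 3. Of Fli1 and Erg, 1 and 2 of the other cells also held reads. Without P19 positive cell 4 the Fli1 log2 ratio was 4.88, and without P19 negative cell 3, which held all 22 Fli1 counts of the others, it was 9.37.

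A pan-endothelial list of 32 junction, receptor, surface and transcription factor genes was compared as a whole. Of these, 29 had at least 10 counts over the 12 P19 cells and are called measured, Vwf fell short of that minimum, and Cd34 and Tal1 had no count in any P19 cell. Of the 29, 27 were at least 2-fold higher in the Fabp4-high cells, none was 2-fold lower, and 14 had no count in the other cells. The background over all 12212 measured genes was 32.2% with a 2-fold higher level and 16.4% with a 2-fold lower one. Of all measured genes 1106 had no count in the other cells. A gene unread in the other cells met the minimum of 10 counts through the Fabp4-high cells alone. The median log2 ratio was 6.80 for the list, with genes unread in one set taken at their bound, and 0.20 for all genes. The values of Cdh5, Kdr and Fabp4 in these cells were known when the list was drawn up, so its count describes these 12 libraries.

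The Fabp4-high cells differed widely in how many of the 32 pan-endothelial genes had a read. P19 positive cells 1, 4, 5, 6 and 8 had 14, 21, 20, 9 and 28 of them and P19 negative cell 1 had 24. The other cells had between 3 and 9, with 9 in P19 positive cell 3, so that P19 positive cell 6 was level with the highest of them. Reads in all 6 Fabp4-high cells were found for 6 of the 29 measured genes, and reads in at least 4 of them for 19. In the other cells 2 genes were read in 4 or more cells.

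Those genes were S1pr1, a receptor for a blood lipid, and Cd93, a C-type lectin-like receptor. S1pr1 was the most abundant member and was read in all 12 cells. Its highest level, 245 CPM, was in P19 positive cell 7, a cell with little Fabp4, and its log2 ratio was 0.12 (0.08 to 0.16). Cd93 was at 2.77 to 248 CPM in the Fabp4-high cells and at 0 to 57.6 CPM in the others, with a log2 ratio of 2.67. The summed level of the list overlapped, at 64.7 to 1057 CPM against 22.6 to 245 CPM, a log2 ratio of 2.44 (2.41 to 2.46). The overlap lay in P19 positive cell 7, where S1pr1 made up nearly the whole sum, and the next of the other cells had 59.1 CPM. Without P19 positive cell 7 the log2 ratio of the sum was 3.32. Without S1pr1 and Cd93, a choice made after the values had been seen, it was 7.11. The remaining 30 genes then summed to 25.01 to 653 CPM (median 283 CPM) in the Fabp4-high cells and to 0.144 to 7.26 CPM (median 1.14 CPM) in the others, with no overlap.

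Of the 29 measured pan-endothelial genes 3 separated the sets without overlap, Cdh5, Egfl7 and Sox7, where 0.377% of all measured genes did so with the Fabp4-high cells above. Egfl7, a protein secreted by endothelium, was at 5.40 to 38.4 CPM in the Fabp4-high cells and was read in 1 other cell, P19 negative cell 2, at 0.978 CPM. Its log2 ratio was 5.76 (5.27 to 6.30), and 8.92 without that cell. Sox7, an endothelial transcription factor, was at 0.0534 to 39.3 CPM in the Fabp4-high cells and was unread in the others, at least 428.9-fold higher, and at its lowest in P19 positive cell 6. Its relative Sox18 was read in 4 of the Fabp4-high cells, at 8.20 to 42.5 CPM, and in 1 other cell.

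Ptprb and Emcn were each read in 5 of the 6 Fabp4-high cells and were near or at 0 in the others. Ptprb, a phosphatase that acts on VE-cadherin and the angiopoietin receptor, was at 83.9, 162 and 73.7 CPM in P19 positive cells 4, 5 and 8 and at 17.6 CPM in P19 negative cell 1, against at most 0.0705 CPM in the other cells. It was unread in P19 positive cell 1, with 0.0534 CPM in P19 positive cell 6. Emcn, a sialomucin of capillary and venous endothelium, was at 9.74 to 64.6 CPM in 5 Fabp4-high cells and unread in P19 positive cell 6 and in all the others, at least 1053-fold higher. P19 positive cells 1 and 6 were the Fabp4-high cells with the fewest of these genes read. The list members within 2-fold were S1pr1 and Robo4, a guidance receptor read in 2 cells of each set. The log2 ratio of Robo4 was -0.51, and 4.74 without P19 negative cell 4, which held 180 of the 184 counts of the others.

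Genes of capillary fatty acid handling other than Fabp4 were mostly higher in the Fabp4-high cells. Of 18 measured, 14 were at least 2-fold higher in the Fabp4-high cells and none was 2-fold lower, beside 32.2% and 16.4% of all genes. The median log2 ratio was 8.002. Without overlap were 4 of the 18, Cav1, Ly6c1, Gpihbp1 and Rgcc, beside 0.377% of all genes. The 4 genes within 2-fold were Lpl, Cd36, Angptl4 and Slc27a4.

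Cav1, which forms the caveolae that fill capillary endothelium, was at 46.5, 145, 204, 1.18 and 28.995 CPM in P19 positive cells 1, 4, 5, 6 and 8 and at 101 CPM in P19 negative cell 1. The others had at most 0.166 CPM, and 4 of them had no count. The log2 ratio was 10.22 (9.34 to 11.28), from 9.88 to 11.19 as each cell was left out. Cav1 lies at chr6:17306335-17341452 in GRCm38.

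Ly6c1, a surface protein of capillary endothelium, was at 17.4 to 107 CPM (median 64.0 CPM) in the Fabp4-high cells and at most 0.139 CPM in the others, a log2 ratio of 10.78 (9.66 to 12.23). Gpihbp1, the capillary anchor of lipoprotein lipase, was read in all 6 Fabp4-high cells, at 0.151 CPM in P19 positive cell 1 and 5.53 to 19.0 CPM in the rest, and in no other cell, at least 499.7-fold higher. Rgcc, a cell cycle regulator abundant in capillary endothelium and listed under its older name 1190002H23Rik, was at 5.14 to 117 CPM against at most 0.0856 CPM. These genes were thus present in every Fabp4-high cell, although Cav1 in P19 positive cell 6 and Gpihbp1 in P19 positive cell 1 were far below the rest.

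Lpl, the lipase itself, and Cd36, the fatty acid uptake receptor, were abundant in all 12 cells. Lpl was at 8919 to 15555 CPM in the Fabp4-high cells and 5362 to 13048 CPM in the others, and its log2 ratio was 0.43. Cd36 was at 1014 to 1544 CPM against 818 to 1295 CPM, a log2 ratio of 0.27. The water channel Aqp1 was unread in the others and was read in 5 Fabp4-high cells, at least 592.8-fold higher. Meox2, a homeobox factor of heart capillary endothelium, was at 247 CPM in P19 positive cell 4, at 14.2 CPM or less in the other Fabp4-high cells and unread in 2 of them. Its log2 ratio was 11.34, and 8.59 without P19 positive cell 4.

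The fatty acid binding protein family was mixed. Fabp3, the form that cardiomyocytes make, was at 5613 to 17279 CPM in the Fabp4-high cells and 6354 to 15010 CPM in the others, a log2 ratio of -0.13. Fabp5, which capillary endothelium makes beside Fabp4, was read in 5 Fabp4-high cells at 0.816 to 14.6 CPM and in none of the others, at least 326.5-fold higher. Of 4 measured members 2 were at least 2-fold higher, Fabp5 and the thinly read Fabp12, and 1 was 2-fold lower. Over all genes these shares were 32.2% and 16.4%.

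Among signalling genes of the VEGF, angiopoietin and Notch pathways, receptors were mostly higher in the Fabp4-high cells, and ligands were divided. Of 19 measured, 14 were at least 2-fold higher and 1 was 2-fold lower, beside 32.2% and 16.4% of all genes. These counts are not separate from those of other lists. Kdr, Flt1, Tie1 and Tek are also on the pan-endothelial list, and Jag1 and Hey1 on the arterial list. The median log2 ratio was 4.72. The VEGF ligands, which cardiomyocytes express, overlapped between the sets: Vegfa was at 19.2 to 100 CPM against 26.3 to 90.6 CPM (log2 ratio -0.08), and Vegfb at 216 to 484 CPM against 307 to 433 CPM (log2 ratio 0.00). Angpt1, which encodes a ligand of the TIE2 receptor, had a log2 ratio of 0.10. The ligand genes Vegfc, Jag1 and Apln were past 2-fold higher, each mainly from 1 cell. Vegfc, the ligand of lymphatic growth, had 53 counts against 2, of which 41 lay in P19 positive cell 8 (log2 ratio 4.72, or 2.97 without it). Apln, which encodes apelin, had 3308 of 3318 counts in P19 positive cell 6 and 176 counts in P19 positive cell 3, and its log2 ratio of 4.23 became -3.78 without P19 positive cell 6.

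Receptors made up most of the genes that were higher. Tek, which encodes TIE2, was read in 4 Fabp4-high cells and 1 other cell, with a log2 ratio of 6.71 (5.34 to 8.59, and 5.41 without P19 positive cell 8), and Tie1 was read in 4 and in none, at least 20.53-fold higher. Notch1, which endothelium uses in the choice between tip and stalk cells, was read in 5 and 2 cells, with a log2 ratio of 6.16, or 8.61 without P19 positive cell 2. Nrp1, a VEGF co-receptor, was read in all 12 cells, at 80.1 to 279 CPM against 40.4 to 85.5 CPM. Its log2 ratio of 1.52 varied only from 1.41 to 1.66 with each cell left out, and the sets overlapped in P19 positive cell 1 alone. Flt4, the receptor of lymphatic and some blood vessels, had 8.79 CPM in P19 negative cell 1, had 0.109 CPM in P19 positive cell 4, and was unread in the remaining 10 cells. The gene called lower was the Notch target Heyl, from 16 counts against 72, and its log2 ratio of -2.18 became 2.65 without P19 negative cell 2.

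Arterial and venous markers were each read in few of the cells. Reads in at least 4 Fabp4-high cells were found for 2 of 9 arterial, 1 of 5 venous and 3 of 5 endocardial genes, against 19 of 29 pan-endothelial genes. Of the arterial genes 7 were 2-fold higher and 1, Fbln5, with 10 counts in P19 negative cell 3 alone, was 2-fold lower. Of the venous genes 4 were higher, and of the endocardial genes 4 were higher and 1, Tmem108, was lower. The shares over all genes were 32.2% and 16.4%. Some of these calls rest on few counts in 1 cell, such as Vwa1 with 23 counts in P19 positive cell 8. The endocardial factor Nfatc1 had 118, 92 and 248 counts in P19 positive cells 1 and 4 and P19 negative cell 1 and 117 counts over the others, a log2 ratio of 1.97. The Notch ligand Jag1 had 24.7 CPM in P19 positive cell 5, and the arterial factor Sox17 had 18.8 CPM in the same cell. Nr2f2, the venous factor COUP-TFII, reached 21.3 CPM in P19 positive cell 4, with at most 2.22 CPM elsewhere. Hapln1, a matrix gene of endocardium and valves, reached 41.6 CPM in P19 positive cell 5, and its log2 ratio of 3.85 became -0.16 without that cell. The vascular adhesion gene Vcam1 had its highest levels in P19 positive cell 6, at 19.6 CPM, and P19 positive cell 2, at 9.10 CPM, and its log2 ratio of 2.46 became -3.71 without P19 positive cell 6. Arterial Efnb2 was highest in a cell without high Fabp4, P19 positive cell 3, at 13.8 CPM.

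**Figure D2:**
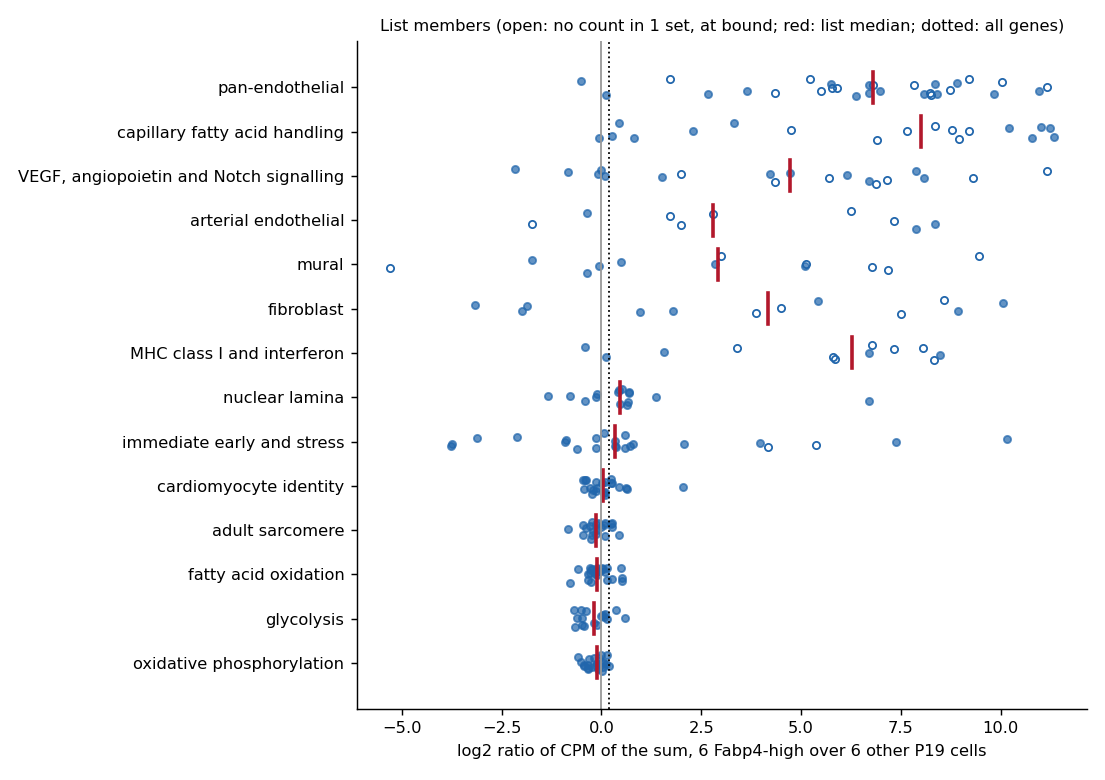
Log2 ratio of CPM of the summed counts, Fabp4-high over other P19 cells, for every measured gene of the lists shown, with the list's median as a red bar, the median of all genes as a dotted line and genes unread in one set drawn open at their bound. The medians are 6.80 for the pan-endothelial and 8.002 for the capillary list, and those of the cardiomyocyte identity, sarcomere and metabolic lists lie between -0.19 and 0.03.

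Cardiomyocyte genes were at similar levels in both sets. Tnnt2, the troponin used in the PCR screen, was at 4617 to 7591 CPM in the Fabp4-high cells (median 5770 CPM) and 6039 to 10090 CPM in the others (median 7236 CPM), a log2 ratio of -0.39. The cardiac actin Actc1 and the myosin light chain Myl3 had log2 ratios of 0.09 and -0.14. Of 22 cardiomyocyte identity genes, all measured, 1 was at least 2-fold higher, the transcription factor Tbx20, and none was 2-fold lower. Over all genes these shares were 32.2% and 16.4%. The log2 ratio of Tbx20 was 2.04, or 1.12 without P19 positive cell 4, where it reached 62.5 CPM. The list's median log2 ratio was 0.03, and its summed level was 79227 to 129775 CPM in the Fabp4-high cells against 88686 to 134280 CPM in the others. The pan-endothelial sum without S1pr1 and Cd93 was at most 653 CPM. It covers 30 genes and leaves out Fabp4 and the capillary genes, so it does not measure the whole endothelial part of a library.

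No gene of 3 other muscle lists passed 2-fold in either direction: 0 of 21 adult sarcomere genes, 0 of 23 fatty acid oxidation genes and 0 of 23 oxidative phosphorylation genes. Over all genes 32.2% were 2-fold higher and 16.4% 2-fold lower. Many adult sarcomere genes, Tnnt2, Actc1 and Myl3 among them, are also on the cardiomyocyte identity list. The median log2 ratios of the 3 lists were -0.14, -0.11 and -0.12. Glycolysis had 0 of 17 genes past 2-fold, a median of -0.19 and a summed log2 ratio of -0.43. Its summed level was 5465 to 8547 CPM in the Fabp4-high cells and 5993 to 11317 CPM in the others. Among its members Eno3, the muscle enolase, had a log2 ratio of -0.67 and Aldoa, an aldolase, of -0.62. The values of the sets overlapped for both genes.

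Marker lists of other heart cell types summed to much lower levels than the cardiomyocyte identity list, and unevenly. Of 12 measured mural genes 7 were 2-fold higher, beside 32.2% of all genes. The 2 that were 2-fold lower, beside 16.4% of all genes, were Cspg4 and Ndufa4l2, both through 1 cell. Cspg4 had 3090 of the 3128 counts of the others in P19 negative cell 4, and its log2 ratio of -1.75 became 4.34 without it, while all 117 Ndufa4l2 counts lay in P19 negative cell 2. Leaving out Acta2, Des and Abcc9, which the muscle cells themselves express, the mural sum was 0 to 66.9 CPM (median 23.6 CPM) in the Fabp4-high cells and 0.514 to 109 CPM (median 2.27 CPM) in the others, the highest value being Cspg4 in P19 negative cell 4. The pericyte gene Rgs5 was at 9.67, 23.8 and 38.7 CPM in P19 positive cells 1, 4 and 8 and unread in the other 9 P19 cells. Pdgfrb was at least 145.7-fold higher over the Fabp4-high cells, with 438 of its 440 counts in P19 positive cell 8, and without that cell both sets were under the floor.

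Of 12 measured fibroblast genes 8 were 2-fold higher and 3 were 2-fold lower, where the shares over all genes were 32.2% and 16.4%. The sum was 70.9 to 354 CPM against 16.4 to 246 CPM, a log2 ratio of 1.24. In P19 positive cells 1 and 6 it was above the full pan-endothelial sum, at 81.2 against 77.0 CPM and 103.8 against 64.7 CPM. In the rest of the Fabp4-high cells it was below that sum. Sparc, a matrix protein gene and the most abundant member, was read in all 12 cells, at 38.3 to 182 CPM in the Fabp4-high cells and 9.71 to 46.0 CPM in the others, a log2 ratio of 1.79. Vim, the intermediate filament vimentin of endothelial and mesenchymal cells, was read in 4 Fabp4-high cells at 4.91 to 33.6 CPM and in no other cell, at least 380.2-fold higher. The lower ones were Gsn, Fbln1 and Mmp2, of which Mmp2 had 1 count against 9, and the log2 ratio of Gsn turned from -1.99 to 1.90 without P19 negative cell 3. Pdgfra, which defines cardiac fibroblasts, had no count in any P19 cell, and Col1a1 had 2 counts. Postn, a matrix gene of activated fibroblasts and valves, reached 106 CPM in P19 positive cell 8, with levels near 0 elsewhere, and Col3a1 was at 106 CPM in P19 positive cell 5. The macrophage genes Cd68 and Csf1r and the adipocyte genes Adipoq and Cfd had no count in the P19 cells. The leukocyte gene Ptprc had 1 count in P19 positive cell 5 and 6 in P19 negative cell 1. The adipocyte genes Plin1 and Cidec had 2 and 8 counts, all in P19 negative cell 1. In all, 11 of 17 macrophage and leukocyte genes were unread. The macrophage sum was at most 0.999 CPM in the Fabp4-high cells and 3.04 CPM in the others. The part of mural and fibroblast transcripts in the differences described above was not tested.

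**Figure D3:**
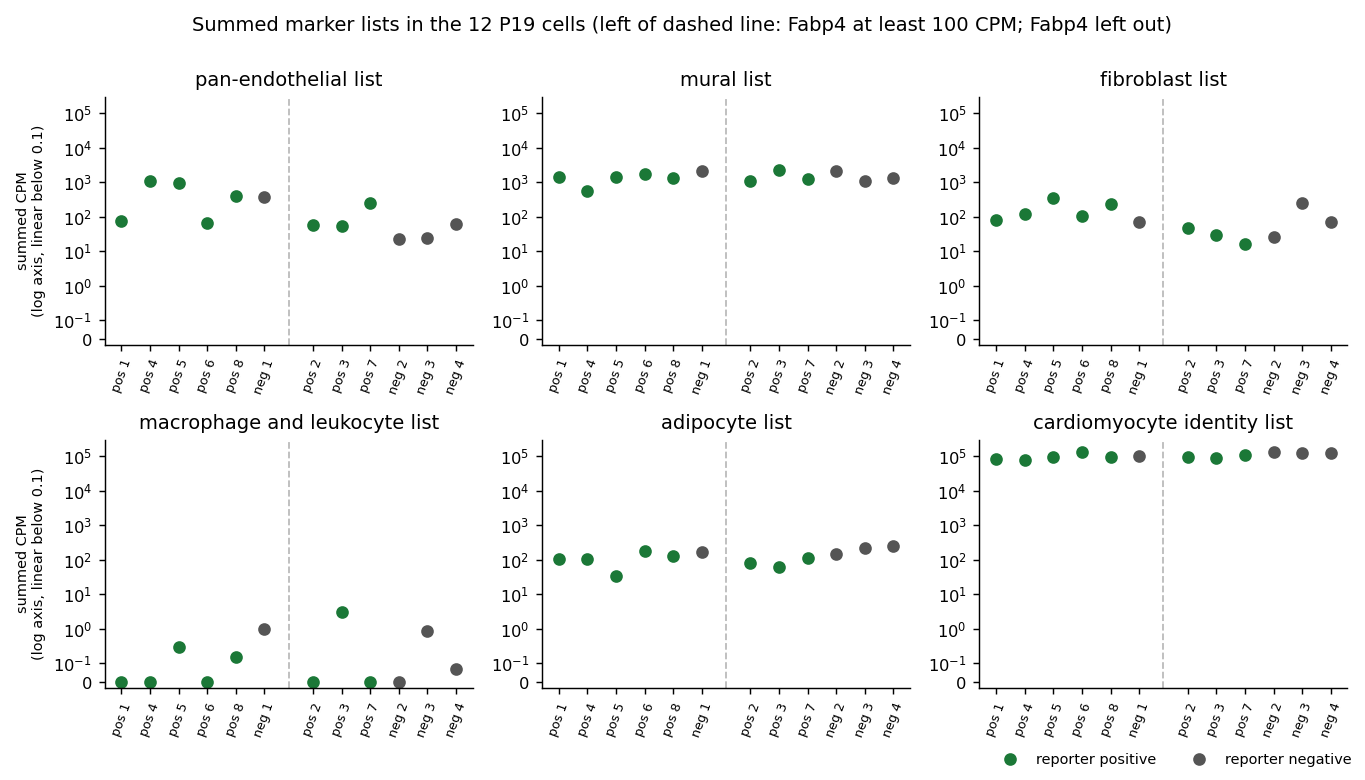
Summed CPM of the pan-endothelial, mural, fibroblast, macrophage and leukocyte, adipocyte and cardiomyocyte identity lists in each of the 12 P19 cells (pos, reporter positive, and neg, reporter negative), with Fabp4-high cells left of the dashed line, on a log axis that is linear below 0.1. The mural sum here includes Acta2, Des and Abcc9, and the adipocyte sum is mostly Dgat2, which all 12 cells express. Cardiomyocyte sums lie between 79227 and 134280 CPM in all cells, and macrophage sums are at most 3.04 CPM.

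The reporter divides the sets unevenly, with 5 of 8 positive and 1 of 4 negative P19 cells being Fabp4-high. Among reporter-positive cells alone the pan-endothelial median log2 ratio was 7.03, against 6.80 over all 12 cells, and the cardiomyocyte identity median was 0.0795. Among the 4 reporter-negative cells, cell 1 had 24 pan-endothelial genes with a read and cells 2, 3 and 4 had 5 each. Of 24 measured S phase genes 10 were 2-fold higher and 5 lower, beside 32.2% and 16.4% of all genes, with a median of 0.57. Some of the higher ones lay mostly in 1 cell, such as Mcm6, with 228 counts in P19 positive cell 1 and 2 in P19 positive cell 8. Lig1 had 395 counts in P19 positive cell 6 and 82 in P19 positive cell 2. The lower ones were Mcm2, Mcm5, Cdc45, Rfc4 and Slbp, and 3 of them turned with 1 cell left out: Mcm2 to 4.27 without P19 negative cell 4, Cdc45 to 1.65 without P19 positive cell 7 and Slbp to 2.83 without P19 negative cell 3. Of 15 measured G2/M genes 10 were higher and 2 lower (Kif11, from 6 counts against 16, and Kif23, from 0 against 42), with a median of 3.93. Most of the higher G2/M genes came from P19 positive cell 8, the cell with Pdgfrb. It held all 403 Birc5 and 190 Ccna2 counts, 224 of 228 Mki67 counts and 294 of 296 Ccnb2 counts, and without it 4 of 9 measured genes were higher and the median was 0.84. Cenpe was read almost only in P19 positive cell 4, at 37.2 CPM. The abundant S phase genes Pcna and Ung had log2 ratios of 0.06 and 0.01.

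The study's gene of interest, Lmnb2, encodes lamin B2 of the nuclear envelope and lies at chr10:80901203-80918245. It had 59 counts over the Fabp4-high cells, 58 of them in P19 negative cell 1, and 78 over the others, all in P19 positive cell 3. Its log2 ratio of -0.41 (-0.93 to 0.09) ran from -5.90 without P19 negative cell 1 to 3.93 without P19 positive cell 3, so no direction could be given. Of 15 nuclear lamina genes 2 were 2-fold higher, Lmnb1 and Syne2, and 1 was lower, Lemd2, beside 32.2% and 16.4% of all genes. Lmnb1 was read at 4.22 and 1.30 CPM in P19 positive cells 6 and 8 and almost nowhere else.

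Of the 12212 measured genes, 3935 had a 2-fold higher level in the Fabp4-high cells and 2004 a 2-fold lower one, so that 66.3% of calls were higher. By the difference of mean log2(CPM + 1), which gives low genes less weight, 76.6% were higher, from 2111 and 646 calls. A gene read in 1 cell can pass 2-fold, and a stricter reading asked that all 6 values of one set lie beyond all 6 of the other. With the Fabp4-high cells above, 46 genes met it, and with them below 2 genes (0.0164%) did, Ctsa and Pppde2. The 46 included, beyond those named already, the transcription factors Klf2 and Klf6, the matrix-binding Igfbp7, the cell cycle inhibitor Cdkn1c and the actin-binding Tmsb4x. Of these, Klf2, Igfbp7, Cdkn1c and Tmsb4x were singled out after their values were seen.

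Klf2 is induced in endothelium by flowing blood and is also on the immediate early and stress list described below. It was at 46.1 to 113 CPM in the Fabp4-high cells and 0 to 21.3 CPM in the others, a log2 ratio of 3.97 (3.87 to 4.08). Without P19 negative cell 3 it was 5.23. Tmsb4x, thymosin beta 4, was at 51.1 to 279 CPM against 0 to 23.7 CPM, a log2 ratio of 3.67 (3.60 to 3.75). Igfbp7 was at 3.25 to 263 CPM against at most 2.57 CPM, and its log2 ratio was 7.02, or 11.02 without P19 negative cell 4. Cdkn1c, the inhibitor p57, was unread in the others and at 0.466 to 127 CPM in the Fabp4-high cells, at least 1438-fold higher. All of these except Cdkn1c had reads in some of the other cells. These genes were thus present in every Fabp4-high cell, with Klf2 the most even of them.

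Genes were also ranked by the smallest ratio met as each cell was left out. They needed at least 20 CPM and reads in at least 5 cells in the higher set, and a symbol that is not a predicted or clone name. The 10 ranked highest in the Fabp4-high cells were Srgn, Sgk1, Flt1, Ptprb, Ly6c1, Ly6a, Cav1, Sult1a1, Gpr116 and Slc28a2. Rgcc was not ranked, because of its older name 1190002H23Rik. Srgn, which encodes the proteoglycan core serglycin, was at 0.604, 21.4, 382, 51.2 and 17.7 CPM in P19 positive cells 1, 4, 5, 6 and 8 and at 79.9 CPM in P19 negative cell 1, with 2 counts over the other cells. Its log2 ratio was 12.63, with a wide interval of 10.78 to 15.68 set by those 2 counts. Sgk1, a kinase, had 1 count over the others and was unread in P19 positive cell 6, and its log2 ratio was 12.91 (10.43 to 18.21). Gpr116, an adhesion receptor of endothelium, was at 1.51 to 82.5 CPM against at most 0.144 CPM. Slc28a2, a nucleoside transporter, was unread in the others and in P19 positive cell 1 and at least 1175-fold higher.

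The 10 genes lowest in the Fabp4-high cells by the same ranking were Mnd1, Heca, Ylpm1, Trim27, Ctsa, Tmem22, Sumf1, Traf3, Mdga1 and Ltbr. Mnd1, a meiotic recombination gene, was at 6.49 to 77.0 CPM in 5 of the other cells and unread in P19 negative cell 4, and had 7 counts over the Fabp4-high cells, a log2 ratio of -9.03 (-10.34 to -7.98). Ctsa, a lysosomal carboxypeptidase, was at 1.90 to 6.88 CPM in the Fabp4-high cells and 8.14 to 37.8 CPM in the others, a log2 ratio of -2.61 (-2.73 to -2.50). It was the only one of the 10 without overlap.

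**Figure D4:**
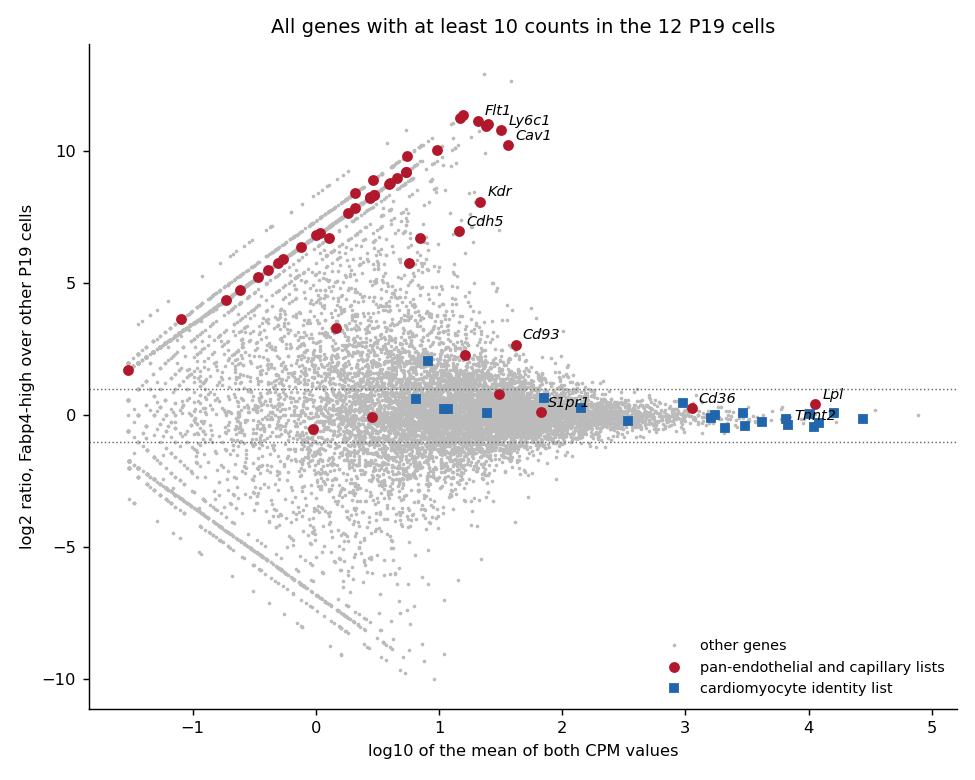
Log2 ratio, Fabp4-high over other P19 cells, against log10 of the mean CPM of both sets for the 12212 measured genes, with pan-endothelial and capillary genes in red, cardiomyocyte identity genes in blue and dotted lines at 2-fold. Most endothelial genes lie well above 0, with S1pr1, Robo4, Lpl, Cd36, Angptl4 and Slc27a4 between the lines, and the blue genes lie between the lines except Tbx20.

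Genes of antigen presentation and the interferon response were often higher too. Of 12 measured, 10 were 2-fold higher and none was 2-fold lower, beside 32.2% and 16.4% of all genes. The median log2 ratio was 6.29, and 7 genes were unread in the other cells, beside 1106 of all 12212 measured genes. The summed level overlapped, at 30.5 to 88.8 CPM against 0.833 to 126.8 CPM, and was highest in P19 negative cell 3. Some members lay largely in 1 cell, such as Ifit1, with 330 counts in P19 negative cell 1 and 2 in P19 positive cell 6. Stat2 was read in 3 Fabp4-high cells, at 2.79 to 12.6 CPM, and Irf1 reached 34.6 CPM in P19 positive cell 5. Of 23 measured immediate early and stress genes, which cell isolation can induce, 6 were 2-fold higher and 4 lower, beside 32.2% and 16.4% of all genes. Of the higher ones Klf6 was at 14.7 to 65.8 CPM in the Fabp4-high cells against at most 0.694 CPM in the others. Klf2, described above, is also on this list. Klf2 and Klf6 were its 2 genes without overlap, beside 0.377% of all genes. The lower ones were Hspa1a, Hspa1b, Atf3 and Ier2, and all but Ier2 took their direction from 1 cell. Without P19 positive cell 3 the log2 ratio of Hspa1a turned from -3.13 to 4.80 and that of Atf3 from -3.77 to 3.51, and without P19 negative cell 4 that of Hspa1b turned from -3.74 to 1.72. Of 10 measured fetal programme genes 2 were 2-fold higher, Tnni1 and Tagln, and 2 lower, Nppb and Myl4, beside the same shares of all genes. Tnni1 had 26 counts, all in P19 positive cell 4. Tagln had 137 and 209 counts in P19 positive cells 6 and 8 and 10 in P19 negative cell 2. Both lower ones turned without P19 positive cell 3, Nppb from -1.03 to 9.06 and Myl4 from -1.75 to 0.63.

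The 21 E14.5 cells give the level of these genes at the other stage. Fabp4 had no count among 567.6 M, which allows up to 0.00529 CPM. Cdh5 was at most 0.0956 CPM in any E14.5 cell, and Kdr was read in 2 negative cells, the higher at 22.4 CPM in E14.5 negative cell 6. The pan-endothelial list summed to 321 CPM over the E14.5 cells, 81.7% of it from S1pr1, since Cd93 was unread there. Without those genes the sum per E14.5 cell was 0.0731 to 397 CPM (median 6.50 CPM), against a median of 283 CPM in the Fabp4-high and 1.14 CPM in the other P19 cells. Age and sort differ between these sets of cells, and the difference was not tested.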

How the data were processed

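The authors deposited raw counts for 20728 genes in 33 cells. The submitters' processing notes name CASAVA 1.8.2, STAR 2.4.0j, HTSeq 0.6.1p1 and the build mm10. RNA was amplified by the antisense RNA method and libraries were made with a TruSeq kit, per the labels' protocols. Settings, strand and duplicate handling: not given in the sources used here. PCR copies are not independent molecules, so intervals and floors cover counting error only.

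Here counts were divided by each cell's total to give CPM, and the P19 cells were split at 100 CPM of Fabp4. Counts were summed over each set and compared as a log2 ratio of CPM of the sum, with a conditional binomial (Clopper-Pearson) interval. A gene with no count in a set was given a bound from a floor of 3 counts over that set, which is 0.0180 CPM in the Fabp4-high and 0.0181 CPM in the other cells. Genes needed 10 counts over the P19 cells to count as measured, and calls were made at 2-fold. Each sample is 1 cell and no label names an animal, so cells are not replicates of an animal, and no test was run. Cells are numbered within a reporter group in accession order, and no 2 columns were identical.

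The cells, the 27 gene lists (426 genes, 415 found, 7 of these by an older symbol) and the rules were chosen with earlier results of these data known. Not matched were Timp4, Ccl21a, Angpt2, Hbb-b1, Hba-a1, Hba-a2, Ahsp, Cpt1b, Syne3, B2m and Xist. Named were any measured endothelial, capillary, VEGF or FABP gene, and the 2 most abundant genes and the 2 of largest ratio of every other list. Also named were the 10 genes ranked highest and lowest. Ranked genes needed at least 20 CPM and reads in at least 5 cells in the higher set, and a symbol that is not a predicted, clone or pseudogene name. A ranking of genes by likeness to Fabp4 is left out, since Fabp4 chose the cells. Other named genes (such as Klf2, Tmsb4x, Igfbp7, Cdkn1c, Pppde2, Cspg4, and members behind counts of 5 or fewer) were chosen as marker genes or after their values were seen. Some genes that the rule took are not reported here. Alternatives were the mean of CPM, the difference in mean log2(CPM + 1), scaling by TMM (edgeR 4.0.16), DESeq2 1.42.0 size factors, thinning to 13.2 M counts (M for 1000000), totals without the 11 most abundant genes, minima of 100 and 1 counts, a floor of 1 count, thresholds of 10 and 300 CPM, reporter-positive cells only and leaving out each cell. The calculation was tested on simulated data. Positions came from GENCODE vM21 (GRCm38), promoters from RefSeq (GRCm38.p6). Python 3.11.15, numpy 2.4.6, pandas 2.3.3, scipy 1.17.1, matplotlib 3.10.9 and R 4.3.3 were used.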

Additional observations from a re-analysis of the deposited data

Results flagged for a closer look

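In 29 sets of 6 cells, each for 1 measure (a list's sum, a gene, the total or the genes read), the highest or lowest cell was compared with its nearest neighbour. A gap of more than 0.625 of the whole range (Dixon's 95% value for 6) was met 8 times. For normally distributed values chance gives this in about 1 set in 20, and these levels of single cells, many at 0, are not so distributed.

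Among the other P19 cells, P19 positive cell 7 stood apart in the pan-endothelial sum at 245 CPM, where the next cell had 59.1 CPM, and P19 negative cell 3 in the fibroblast sum at 246 CPM, next to 68.8 CPM. In the same set P19 positive cell 3 stood apart in Cdh5 at 0.996 CPM, next to 0.0694 CPM, and P19 negative cell 4 in Kdr at 0.775 CPM, next to 0.0694 CPM. P19 negative cell 2 was the only one of them with Egfl7, at 0.978 CPM, and P19 positive cell 3 was highest in the macrophage and leukocyte sum at 3.04 CPM, next to 0.856 CPM. Among the Fabp4-high cells, P19 positive cell 4 stood apart in Egfl7 at 38.4 CPM, next to 14.4 CPM, and P19 negative cell 1 in the macrophage and leukocyte sum at 0.999 CPM, next to 0.292 CPM.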

How the results depend on the processing

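The pan-endothelial summed log2 ratio of 2.44 stayed above 0 in every alternative run. It was 2.65 by the mean of CPM, 2.36 with TMM factors, 2.36 with DESeq2 size factors, 2.65 with every cell thinned to 13.2 M counts, 2.80 with a Fabp4 threshold of 300 CPM, 1.81 in reporter-positive cells only and 7.11 without Cd93 and S1pr1. With each cell left out it ran from 2.13 to 3.32. The pan-endothelial median of 6.80 became 1.39 by the difference of mean log2(CPM + 1), which counts unread genes as 0, and ran from 6.53 to 7.497 with each cell left out. By that difference 2111 genes were 2-fold higher and 646 lower, in place of 3935 and 2004. With each cell left out these counts ran from 3433 to 4328 and from 1700 to 2355. The cardiomyocyte identity median of 0.03 changed sign under several settings and stayed close to 0. It was -0.0826 by the mean of CPM, -0.103 by mean log2(CPM + 1), -0.0429 with TMM and -0.0388 with DESeq2 factors, -0.0885 when thinned, -0.208 at 300 CPM, 0.0795 in reporter-positive cells and -0.129 to 0.0588 with each cell left out.

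Of 219 genes followed, 167 were past 2-fold, and 19 of these changed sign in some setting. Of the 52 within 2-fold, Lmnb2, Robo4 and Efnb2 among them, 33 changed sign, so their sign carries no direction. By mean log2(CPM + 1) the value was 0.84 for Nppb, 0.15 for Mcm2 and 0.21 for Slbp. At 300 CPM, where P19 positive cell 6 joins the other set, the log2 ratio was -7.79 for Apln, -1.55 for Unc5b, -6.11 for Vcam1, -0.97 for Lmnb1 and -0.91 for 2810046L04Rik. In reporter-positive cells it was 1.64 for Heyl, 1.32 for Hspa1b, 3.87 for Mcm2, 1.83 for Slbp, 1.91 for Gsn and 0.93 for Cspg4. With each cell left out it ran from -0.16 (without P19 positive cell 5) to 4.29 for Hapln1, from -3.78 and -3.71 (without P19 positive cell 6) to 9.75 and 6.40 for Apln and Vcam1, and from -0.20 (without P19 positive cell 8) to 5.83 for Kdm5d. The upper ends that follow are without the cell named. Without P19 positive cell 3 it ran from -7.90 to 4.80 for Hspa1a, -5.51 to 3.51 for Atf3, -1.83 to 9.06 for Nppb and -4.34 to 0.63 for Myl4. Without P19 positive cell 7 it ran from -3.74 to 1.65 for Cdc45, and without P19 negative cell 2 from -3.23 to 2.65 for Heyl. Without P19 negative cell 3 it ran from -1.80 to 2.83 for Slbp, -2.85 to 0.034 for Kif11 and -7.23 to 1.90 for Gsn. Without P19 negative cell 4 it ran from -5.37 to 1.72 for Hspa1b, -1.93 to 4.27 for Mcm2 and -4.44 to 4.34 for Cspg4. The median over all genes was 0.20, and it was 0.48 in reporter-positive cells, and ratios of single genes are relative to that shift. No paired analysis was possible because the result comes from no test and the labels pair no cells.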

Other observations

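Reads of the Y-linked genes Ddx3y and Eif2s3y were present at 90.1 to 405 CPM in all 6 Fabp4-high cells. Among the other P19 cells they were at 92.3 to 231 CPM except in P19 negative cell 3, which had 2.06 CPM of Ddx3y and 0.171 CPM of Eif2s3y. That cell also had the highest fibroblast sum of the other set, 246 CPM.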
